A study of Saccharomyces cerevisiae with 4 samples.

Results

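The genes described here are the 10 of pyrimidine synthesis and uracil salvage in budding yeast (Saccharomyces cerevisiae) named here with their systematic names: URA1 (YKL216W), URA2 (YJL130C), URA4 (YLR420W), URA5 (YML106W), URA6 (YKL024C), URA7 (YBL039C), URA8 (YJR103W), URA10 (YMR271C), FUR1 (YHR128W) and FUR4 (YBR021W). All 10 were found among the 6176 genes of the deposited table, and all 10 had a value on each of the 4 arrays. They were chosen by function, with earlier results of these data known, and the rule that names them uses no measured value. The study asked how cells that lack the Ptc1 protein phosphatase respond to rapamycin, an inhibitor of the nutrient-sensing kinase complex TORC1. A wild-type strain and a ptc1 mutant strain were grown at 28 °C in YPD, a rich medium, and in log phase each was given 200 ng/ml rapamycin for 1 h or the ethanol and Tween-20 vehicle (mock). Both strains were handled in the same way, and neither the strain background nor the way the PTC1 gene was disrupted is given in the sources used here. Each 2-colour array set treated against mock-treated cells of the same strain, and each strain had 2 arrays, on which, as the study's design is read here, 1 pair of RNA samples was labelled with the dyes exchanged.

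Pyrimidine nucleotides are made by a short linear pathway. Carbamoyl phosphate and aspartate are turned in several steps into UMP, which kinases convert to UTP, and CTP synthase turns UTP into CTP. Cells can also take up uracil and join it directly to the activated ribose PRPP to give UMP. UTP and CTP are building blocks of RNA, of which ribosomal RNA is the bulk in growing yeast. They are also needed for sugar and lipid precursors. End product controls the pathway: UTP inhibits the first enzyme, and the activator Ppr1 raises several URA genes when pathway intermediates build up.

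Each value was taken as the log2 of rapamycin over mock. Neither the base of the logarithm nor the direction is stated with the values, and the direction is likely from the design of the study. The ± of a mean is the SD of 2 arrays (n = 2), taken as repeats of 1 RNA pair. On that reading it holds technical spread alone. Whether the arrays came from separate cultures is not stated in the sources used here, and no p-value was calculated. The words rose and fell are used where the mean reached 1 in size, a 2-fold change, and the strain's arrays shared its sign. The arrays had values for 5006 to 5418 rows, correlated with each other across genes with r between 0.869 (the ptc1 arrays) and 0.958 (the wild-type arrays), and had medians between −0.0015 and 0.131. Over all genes the median of this SD was 0.155 for wild-type and 0.277 for ptc1 arrays, so ptc1 was measured less precisely. For the ptc1 arrays the labels contradict themselves on which dye marked the treated cells, which leaves the mean of the strain as it is. RNA came from whole cultures, so fewer cells with a transcript and less of it per cell cannot be told apart.

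In wild-type cells 5 of the 10 genes fell and 1 rose, where 15% of all 4796 measured genes fell and 13.8% rose. The genes that fell were URA7, URA1, FUR4, URA4 and URA5, and URA10 rose. The median of the 10 means was −1.04, against 0.07 over all genes. In ptc1 cells the same 5 genes and FUR1 fell and URA10 again rose, where 12.4% of 5221 genes fell and 10.6% rose. The median was −1.28, against 0.08 over all genes. All 10 genes had the same sign on all 4 arrays, negative for 8 and positive for URA10 and URA8.

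**Figure D1:**
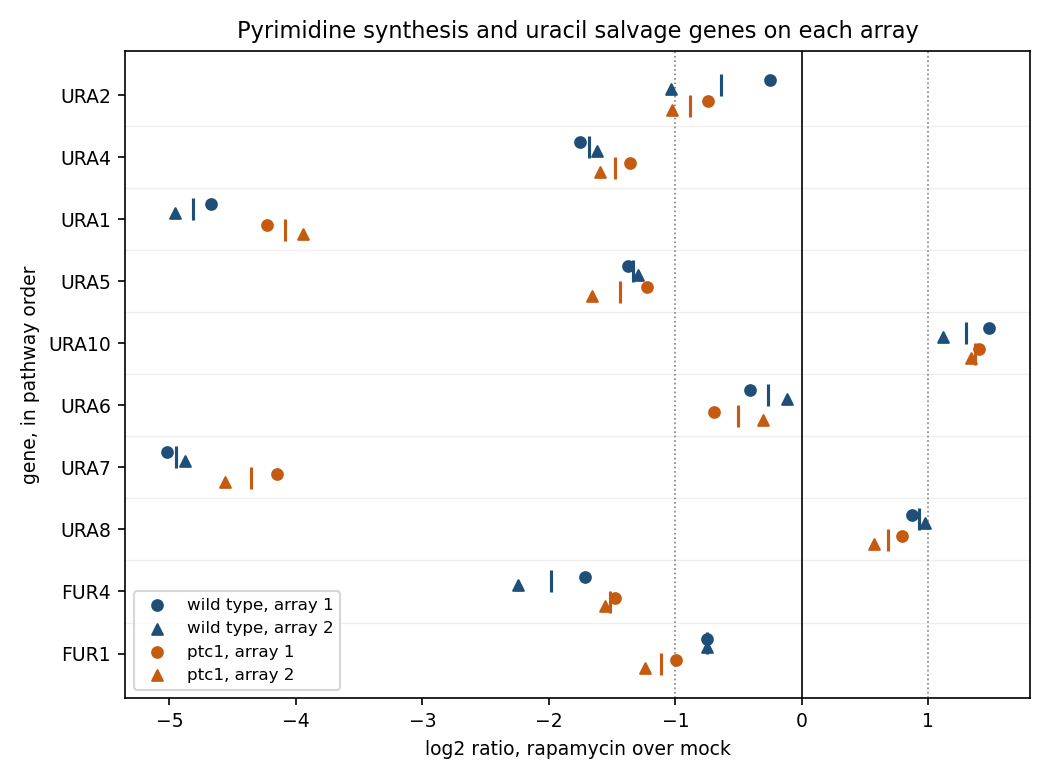
Log2 ratio of rapamycin over mock (x axis) of each of the 10 genes (y axis, in pathway order) on the 4 arrays; circles are array 1 and triangles array 2 of the wild type (blue) and ptc1 (orange), vertical ticks are strain means, and dotted lines mark 2-fold. URA1 and URA7 lie near −5 to −4 on every array, and URA10 and URA8 are the genes to the right of 0.

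The first steps of UMP synthesis were unevenly affected. URA2 encodes the large enzyme that makes carbamoyl phosphate and joins it to aspartate, the step that UTP inhibits. Its log2 ratios were −0.25 and −1.03 on the wild-type arrays and −0.75 and −1.02 on the ptc1 arrays. All 4 are negative, and the wild-type arrays lie far apart, with a mean of −0.64 ± 0.56 whose SD was larger than that of 95.8% of genes. The ptc1 mean was −0.89 ± 0.20, and neither strain passed the 2-fold rule. On wild-type array 2 alone, or on ptc1 array 2 alone, URA2 would be past it.

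URA4, the gene of dihydroorotase, which closes the pyrimidine ring, had ratios of −1.75 and −1.62 in the wild type and of −1.36 and −1.60 in ptc1. It fell in both strains, by 3.22-fold in the wild type (−1.69 ± 0.10) and by 2.79-fold in ptc1 (−1.48 ± 0.17). URA1 encodes dihydroorotate dehydrogenase, which in this yeast is a cytosolic enzyme that uses fumarate. Its ratios were −4.67 and −4.95 on the wild-type arrays and −4.23 and −3.95 on the ptc1 arrays. All 4 arrays thus show a large fall, 28.1-fold in the wild type (−4.81 ± 0.20) and 17.0-fold in ptc1 (−4.09 ± 0.20). Only 4 of 4796 genes had a lower mean than URA1 in the wild type, URA7 among them, and it was the 7th lowest of 5221 in ptc1.

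Orotate phosphoribosyltransferase, which joins orotate to PRPP, is made from a pair of genes, URA5 for the major and URA10 for the minor form. URA5 had ratios of −1.37 and −1.30 in the wild type and of −1.23 and −1.66 in ptc1. It fell by 2.52-fold (−1.33 ± 0.05) and 2.72-fold (−1.44 ± 0.31). URA10 had ratios of 1.48 and 1.12 in the wild type and of 1.40 and 1.34 in ptc1. It rose by 2.46-fold (1.30 ± 0.25) and 2.59-fold (1.37 ± 0.04), so the isoenzyme genes went in opposite directions in both strains. Within an array the URA10 ratio stood above that of URA5 by at least 2.41 log2 units. As deposited, the mean gap of 2.63 ± 0.31 in the wild type compares with 2.81 ± 0.26 in ptc1, and the strains differ in it by less than either SD. That closeness depends on the setting. The gap differed (ptc1 minus wild type) by 0.39 with the arrays scaled to equal spread. It differed by 0.77 with the ptc1 values divided by the slope of all ptc1 means on the wild-type means. With 1 array left out it differed by −0.04 to 0.40.

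CTP synthase also comes from a pair of genes, URA7 for the major and URA8 for the minor form. URA7 had ratios of −5.02 and −4.88 in the wild type and of −4.15 and −4.57 in ptc1. It fell by 30.9-fold (−4.95 ± 0.10) and 20.5-fold (−4.36 ± 0.29), and in each strain it had the 4th lowest mean of all measured genes. URA8 had ratios of 0.87 and 0.97 in the wild type and of 0.79 and 0.57 in ptc1. Its means of 0.92 ± 0.07 and 0.68 ± 0.15 are positive on every array and do not pass the 2-fold rule. The URA8 ratio exceeded that of URA7 by 5.87 ± 0.03 in the wild type and by 5.04 ± 0.14 in ptc1, which is a 58.7-fold and a 32.9-fold gap between the ratios of the pair. The gap differed by −0.83 (ptc1 minus wild type) as deposited and by −0.42 with the arrays scaled to equal spread. It differed by 0.23, the opposite sign, with the ptc1 values divided by the slope of all ptc1 means on the wild-type means, so no direction is drawn for it. Signal shared between the probes of isoenzyme genes was not examined, and the members of both pairs had opposite signs on all 4 arrays.

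URA6 encodes the kinase that turns UMP into UDP. Its ratios were −0.41 and −0.12 on the wild-type arrays and −0.70 and −0.31 on the ptc1 arrays. Its means of −0.26 ± 0.21 and −0.50 ± 0.27 were the smallest in size of the 10 genes in both strains. URA6 thus did not pass the rule in either strain, while URA4, URA1 and URA5 before it and URA7 after it fell. The genes of the steps directly before and after URA6, URA3 and YNK1, are outside the 10 and are described below. YNK1 rose in both strains and URA3 rose in the wild type.

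For uracil, FUR4 encodes the plasma membrane permease and FUR1 the uracil phosphoribosyltransferase that makes UMP from the uracil taken up. FUR4 had ratios of −1.72 and −2.25 in the wild type and of −1.48 and −1.55 in ptc1. It fell by 3.95-fold (−1.98 ± 0.37) and 2.86-fold (−1.51 ± 0.06). FUR1 had ratios of −0.75 on both wild-type arrays, a mean of −0.75 ± 0.0021 that does not pass the rule. In ptc1 its ratios were −0.99 and −1.24, and it fell by 2.17-fold (−1.12 ± 0.17). That call rests on ptc1 array 2, since the value on ptc1 array 1 is just short of 2-fold.

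**Figure D2:**
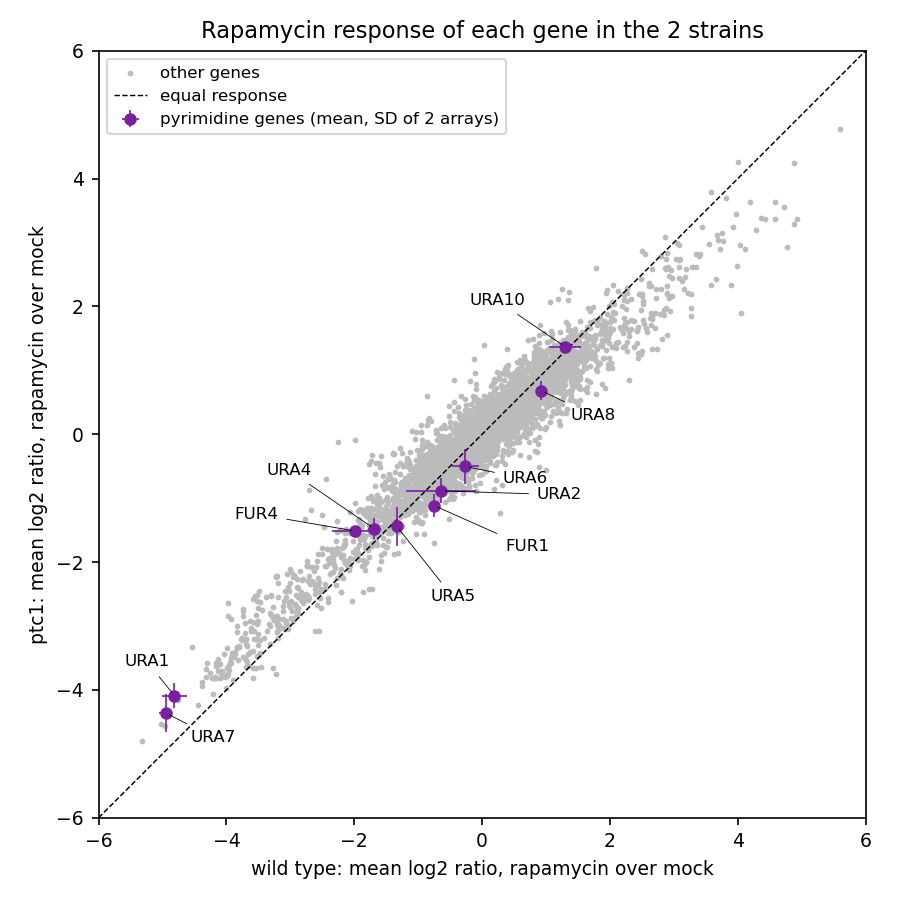
Mean log2 ratio of rapamycin over mock in the wild type (x axis) and in ptc1 (y axis) for the 4650 genes measured on all 4 arrays (grey); the 10 pyrimidine genes are purple with the SD of 2 arrays as bars, and the dashed line marks equal responses. URA7 and URA1 sit at the lower end of the cloud and above the line, while URA10, on the line, and URA8 lie on the side of higher ratios.

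The strain comparison asked whether the rapamycin response of these genes depended on Ptc1. The rule for a difference required strain means at least 1 apart (ptc1 minus wild type) and every ptc1 array on the same side of both wild-type arrays. None of the 10 genes passed, where 1.91% of 4650 genes did (0.989% higher and 0.925% lower in ptc1). The differences ran from −0.36 for FUR1 to 0.73 for URA1, all inside the range of −0.75 to 0.74 that holds the central 95% of all genes. Their median was −0.02, and that of all genes rounded to 0.00 (−0.0035).

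URA1 had the largest difference (0.73 ± 0.28), followed by URA7 (0.59 ± 0.31) and FUR4 (0.47 ± 0.38). With 1 array left out they ranged from 0.58 to 0.87 for URA1, from 0.39 to 0.80 for URA7 and from 0.20 to 0.73 for FUR4. The order is not stable: without wild-type array 2, and without ptc1 array 2, URA7 had the larger difference (0.67 and 0.80, against 0.59 and 0.58 for URA1). FUR4 was lowest without wild-type array 2 and highest without wild-type array 1, and URA7 was lowest without ptc1 array 1. In these genes and in URA4 (0.21 ± 0.19) both ptc1 arrays were higher than both wild-type arrays, so the fall was smaller in ptc1. Both ptc1 arrays were lower for FUR1 (−0.36 ± 0.17) and URA8 (−0.24 ± 0.17). With each array centred on its median URA4 and URA8 overlapped. The arrays of the strains overlapped as deposited for URA2, URA5, URA10 and URA6, with differences between −0.24 and 0.07. Arrays that do not overlap are common in this table: 34.7% of all genes had them (18.2% with ptc1 above and 16.5% with ptc1 below), against 6 of these 10 (4 above and 2 below).

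The mean was closer to 0 in ptc1 for 5 of the 10 genes and for 64.3% of all genes. Responses were smaller in ptc1 over the whole table, with a slope of the ptc1 means on the wild-type means of 0.826. The ratio of the ptc1 mean to the wild-type mean was 0.849 for URA1, 0.880 for URA7, 0.877 for URA4 and 0.764 for FUR4. The median ratio of the 697 shared genes that fell in the wild type was 0.851, and that of the 35 with a wild-type mean below −4 was 0.900. Among the members that fell or rose in the wild type, URA5 (1.08) and URA10 (1.06) had ratios above 1. So did 12.5% of all genes that fell and 16.3% of those that rose in the wild type. Ratios were also above 1 for URA6 (1.91), FUR1 (1.49) and URA2 (1.38), which did not pass the rule in the wild type. With the ptc1 values divided by the slope, the differences of URA1 and URA7 turned negative, to −0.14 and −0.33, and that of URA4 to −0.11. That of FUR1 grew to −0.60 and that of URA10 to 0.36. On that scale the strains did not overlap for 4 genes, with ptc1 below for URA5, URA7 and FUR1 and above for URA10. With the arrays scaled to equal spread the differences were 0.39 for URA1 and 0.25 for URA7. There the strains did not overlap for 3 of the 10 genes (URA1, FUR4 and FUR1). The share of all genes without overlap was counted only for the values as deposited (34.7%), so no reading is drawn from these counts. As every ratio has the strain's own mock culture as its base, a difference in treated and one in mock-treated cells cannot be told apart.

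**Figure D3:**
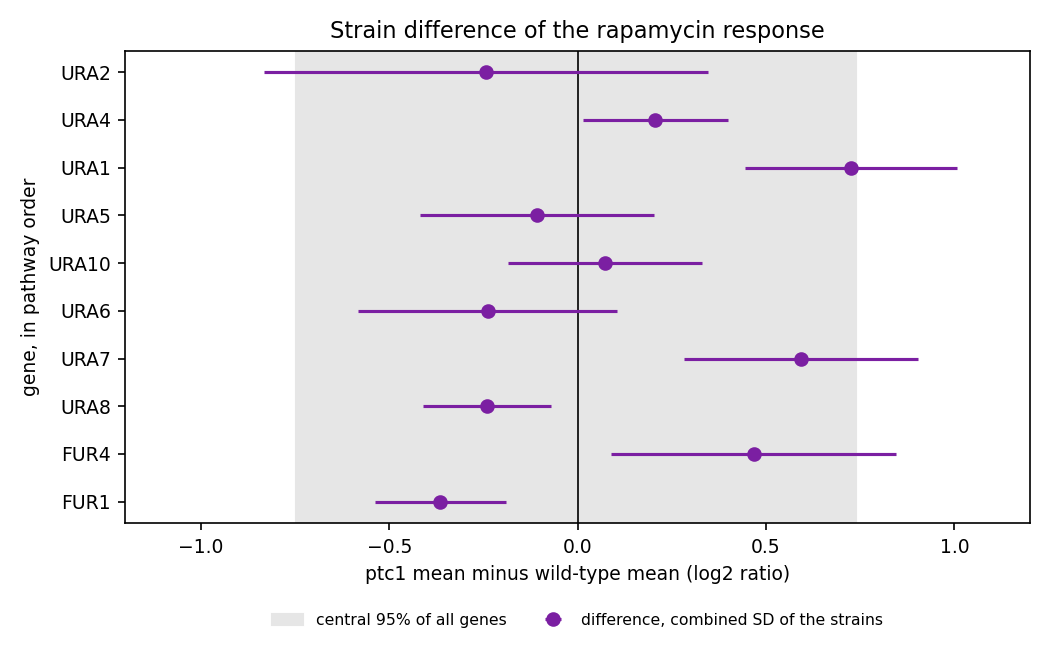
Difference of the mean log2 ratios, ptc1 minus wild type (x axis), for each of the 10 genes (y axis, in pathway order); bars are the combined SD of the strains and the grey band holds the central 95% of all genes. All 10 points lie inside the band, with URA1 at 0.73 next to its upper edge.

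The other genes of pyrimidine metabolism were read from a list of 17, in which 14 had values on both wild-type arrays and all 17 on both ptc1 arrays. In the wild type 5 rose and 2 fell, with a median of −0.20, where 13.8% of all genes rose and 15% fell. In ptc1 3 rose and 2 fell, with a median of −0.22, where 10.6% of all genes rose and 12.4% fell. URA3, the gene of the last enzyme of UMP synthesis, had ratios of 1.27 and 1.32 in the wild type and of 0.72 and 0.99 in ptc1. It rose in the wild type (1.30 ± 0.03), unlike URA4, URA1 and URA5 before it in the pathway, and did not pass the rule in ptc1 (0.85 ± 0.19). Many laboratory yeasts carry a ura3 mutation or a URA3 marker, and the genotype of these strains at URA3 is not given in the sources used here. PPR1, the gene of an activator of several URA genes, URA1, URA3 and URA4 among them, fell in the wild type (−1.26, with an SD of 0.0092). Its ptc1 mean was −0.85 ± 0.09. Of these targets URA3 rose and URA1 and URA4 fell in the wild type, and a full list of its targets was not examined.

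YNK1, the nucleoside diphosphate kinase gene that follows URA6 and gives UTP, rose in both strains (1.62 ± 0.29 and 1.53 ± 0.07). FUI1, which encodes the uridine permease, a relative of the uracil permease, fell in both (−1.42 ± 0.05 and −1.54 ± 0.37). On the arrays its ratios were −1.46 and −1.39 on the wild-type arrays and −1.28 and −1.80 on the ptc1 arrays, close to those of URA5. Of 5 permease genes related to FUR4, FUI1 was the 1 that fell in each strain, with 4 measured in the wild type. Of all genes 15% fell in the wild type and 12.4% in ptc1. The allantoin permease gene DAL4 stood at −0.20 ± 0.29 and 0.19 ± 0.18, and neither it nor THI7, NRT1 or THI72 passed the rule where measured. Other members of the list turn nucleosides and nucleotides over. The cytidine deaminase gene CDD1 rose in both strains (1.11 ± 0.10 and 1.08 ± 0.14), as did PHM8 (2.52 ± 0.05 and 2.05 ± 0.49), whose product removes phosphate from nucleotides. SDT1, the gene of a pyrimidine nucleotidase, rose in the wild type (1.39 ± 0.30), and its ptc1 mean was 0.66 ± 0.25. The uridine kinase gene URK1 (0.21 ± 0.06 and 0.01 ± 0.07) and the cytosine deaminase gene FCY1 (−0.33 ± 0.02 and −0.24 ± 0.59) did not pass in either strain. Nor did URH1, FCY2, FCY21 and FCY22 where measured.

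**Figure D4:**
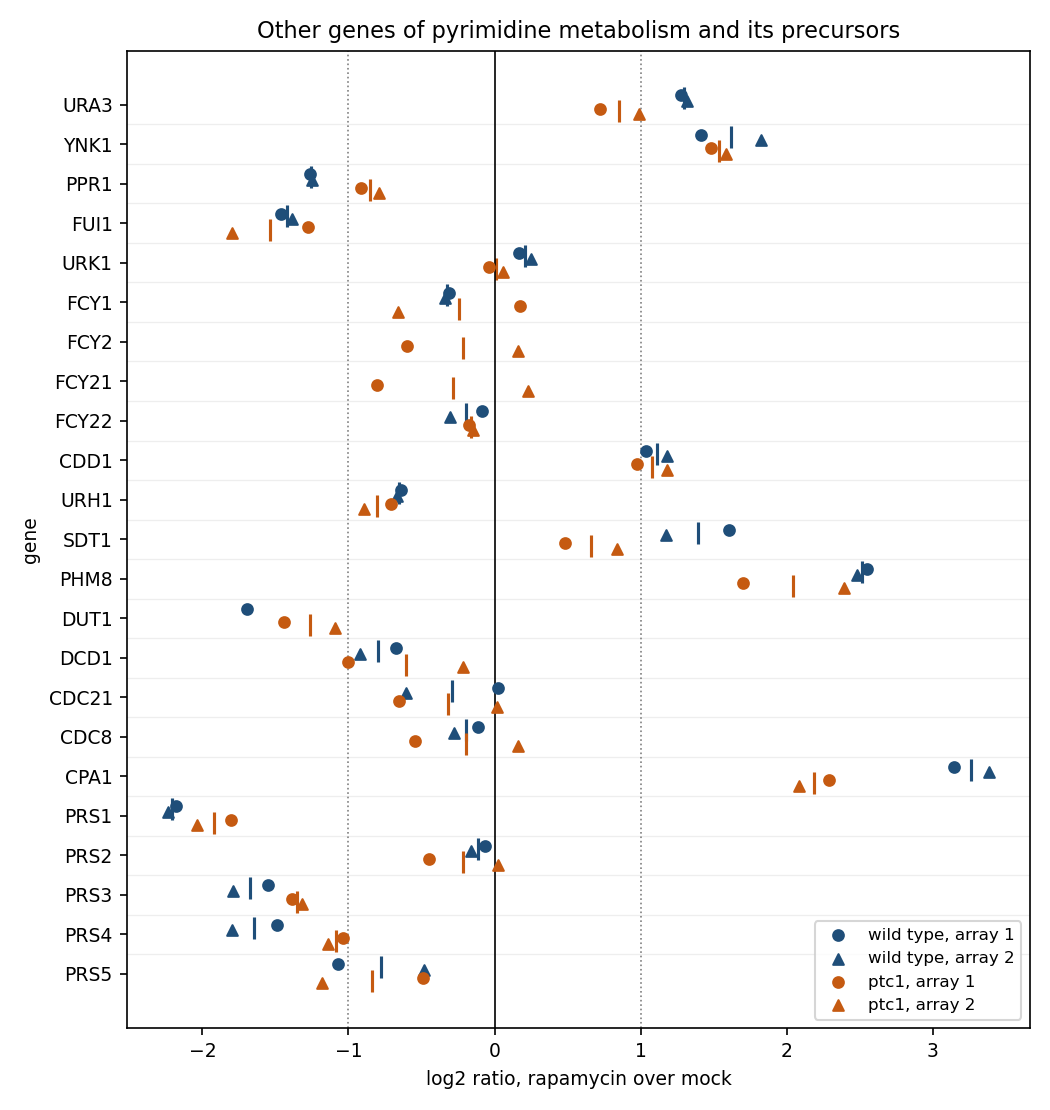
Log2 ratio of rapamycin over mock (x axis) on each array for the other pyrimidine genes, the arginine pathway gene CPA1 and the PRPP synthetases (PRS1 to PRS5); symbols and colours mark array and strain, ticks the strain means where both arrays had a value, and dotted lines 2-fold. CPA1 lies above 2 on every array, while PRS1, PRS3 and PRS4 lie below −1 on every array.

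The precursors of the pathway are shared with other pathways. Carbamoyl phosphate is also made for arginine, and CPA1, a gene of that step, rose in both strains while URA2 did not pass the rule. CPA1 rose by 3.26 ± 0.17 in the wild type (ptc1: 2.19 ± 0.14). It passed the rule for a strain difference (−1.08 ± 0.22). PRPP, used by the enzymes of URA5, URA10 and FUR1, is made by synthetases of which PRS1, PRS3 and PRS4 fell in both strains. PRS1 fell most, to −2.21 ± 0.03 and −1.92 ± 0.16, and PRS2 and PRS5 did not pass the rule in either strain.

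Set beside the purine genes, the 10 pyrimidine genes lay between the lists. Of all genes 15% fell and 13.8% rose in the wild type, and 12.4% fell and 10.6% rose in ptc1. Of 11 ADE genes of purine synthesis 1 fell in each strain (ADE57), and 1 rose in the wild type (ADE3), with medians of −0.02 and 0.02. Of 10 genes of guanine nucleotide synthesis and purine salvage 8 fell in each strain, with medians of −2.59 and −2.30. They include GUA1, the GMP synthase gene (−3.89 ± 0.08 and −3.46 ± 0.28), and IMD4, an IMP dehydrogenase gene (−3.57 ± 0.01 in the wild type and −3.21 in ptc1). Of 6 measured RNA polymerase I subunit genes 5 fell in each strain, with medians of −2.98 and −2.41. Like CPA1, AAH1 of the guanine and salvage list (1.01 ± 0.52) and RPA43 of RNA polymerase I (1.22 ± 0.11) passed the rule for a strain difference. Both were higher in ptc1, and 1.91% of all genes passed that rule in either direction. In the pyrimidine genes the medians of −1.04 and −1.28 cover a wide range, from URA7 at −4.95 to URA10 at 1.30 in the wild type. No test of the difference between lists was made.

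**Figure D5:**
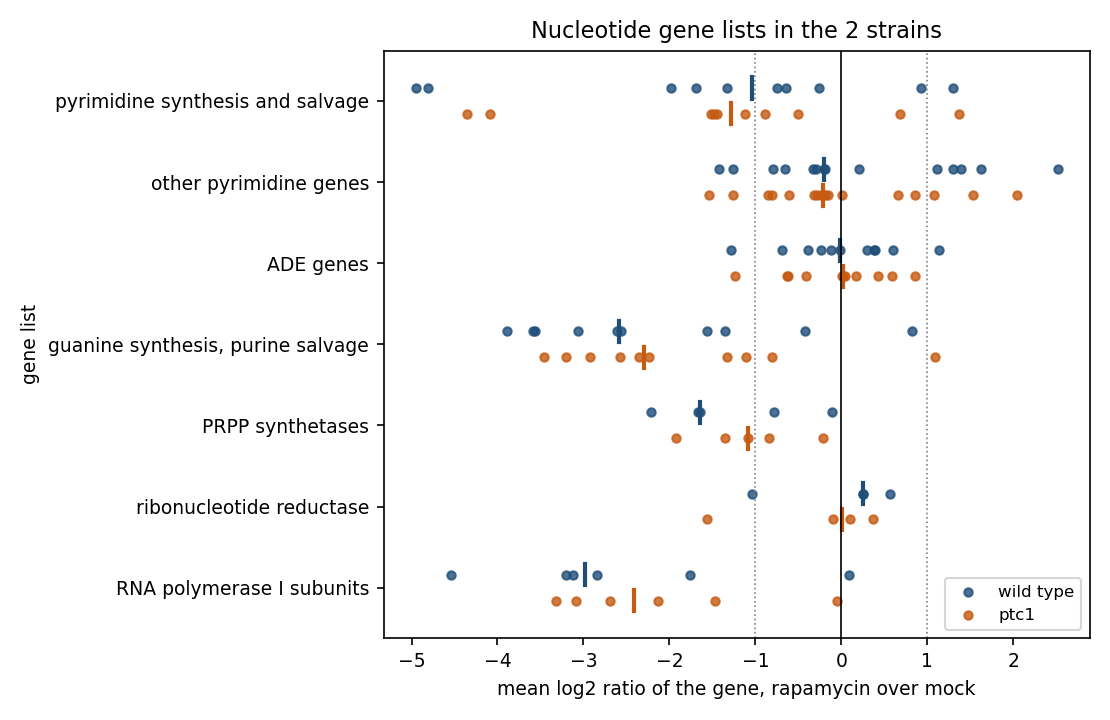
Mean log2 ratio of rapamycin over mock (x axis) of each gene in 7 gene lists (y axis) in the wild type (blue) and ptc1 (orange); points are genes, bars are list medians and dotted lines mark 2-fold. The pyrimidine genes spread from below −4 to above 1, the ADE genes lie around 0, and most of the guanine and purine salvage genes lie to the left of −1.

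The genes whose values lay nearest over the 4 arrays were found by the root-mean-square distance in log2 units among 4650 genes, which with 4 arrays describes likeness only. The nearest to URA7 were the ribosomal protein genes RPL9A (0.148), RPS9B (0.157) and RPS7A (0.219). URA1 lay nearest to RPS7A (0.353), URA7 (0.360) and RPS16B (0.396), with no gene within 0.25. FUR4 lay nearest to DBP10 (0.0803), TIF35 (0.0875) and MAK11 (0.109), and URA4 to RPA49 (0.107), MAP1 (0.113) and YLR230W (0.116). The nearest to URA5 were GRS1 (0.0717), FUI1 (0.0976) and YDL114W (0.117), and those to URA10 were ATG20 (0.0632), YRO2 (0.0719) and GID11 (0.0757). URA8 had DGK1 (0.0315), ARC40 (0.0670) and ECM7 (0.0734) as its nearest genes and 202 genes within 0.25, whereas URA7 had 3. URA2 lay nearest to GCN1 (0.0882), PDR16 (0.174) and DMO2 (0.182), URA6 to ALG7 (0.0770), YGL176C (0.0936) and YJL193W (0.111), and FUR1 to YML095C-A (0.118), PDC6 (0.127) and IPI1 (0.135). The distance depends on the size of the ratios, so URA8 had many genes with ratios of similar size. URA1 and URA7, whose means were among the lowest of all genes, had few or none.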

How the data were processed

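Per the labels, cDNA from 8 µg total RNA was labelled, spots narrower than 120 µm or dimmer than 150 units in Cy3 and Cy5 were dropped by the authors, and the ratio of medians served for normalisation. The deposited values are taken as log2 ratios, 1 per open reading frame and array. The sources used here do not state scanner software, background correction, handling of repeated spots or log base. No sign was turned, since all arrays correlated positively. Intensities were not used, so the number of arrays limits the precision.

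Of 6212 rows, 5662 were named by locus tag and 52 by a unique synonym in the RefSeq R64 table, used for names and gene order, and rows of a gene were averaged (Python 3.11.15, pandas 2.3.3). Calls used the 2-fold rule. Named genes were the 10 members, genes of the lists, and the 3 nearest genes over the 4 arrays. Alternatives were centring, scaling, other folds, no condition on signs, natural logarithms, each array left out, and rescaled ptc1 values. The members and lists were chosen with earlier results of these data known. Promoter motifs and protein identities were not analysed here, and 1 further gene is not reported here.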

Additional observations from a re-analysis of the deposited data

How the results depend on the processing

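No paired analysis was made, and no result comes from a test. The labels give no replicate numbers and disagree on the dyes of the ptc1 arrays. Pairing arrays by dye would leave each mean difference as it is, but could change its SD. Centring, scaling to equal spread and dropping the condition on signs each kept every count past the 2-fold rule within 1.5 times. The arrays of the strains did not overlap for 6 of the 10 genes as deposited, 4 after centring and 3 after scaling. Over all genes the share was 34.7% as deposited and was not counted after centring or scaling. Of the 10 genes, leaving out an array gave 5 to 6 falls in wild-type and 5 to 7 in ptc1 cells, 1 rise in each strain and 0 strain differences. Over all genes it gave 746 to 814 falls and 639 to 789 rises in the wild type. In ptc1 it gave 688 to 728 falls and 621 to 656 rises over all genes. At 1.5-fold, 7 fell and 2 rose (URA10 and URA8) in each strain, and 2 differed between strains (URA1 and URA7). At 3-fold, 0 rose in either strain, 4 fell in the wild type (URA1, URA4, URA7 and FUR4) and 2 fell in ptc1 (URA1 and URA7). If the values were natural logarithms, 2 would rise in the wild type and 1 (URA1) would differ. With all arrays in use, the genes measured were 4796 in the wild type, 5221 in ptc1 and 4650 for the strain difference. Over all genes, 1.5-fold gave 1138 wild-type falls, 1264 wild-type rises, 1060 ptc1 falls, 1158 ptc1 rises and 431 strain differences. The counts at 3-fold were 435, 265, 369, 197 and 7. Natural logarithms gave 1079 wild-type rises, 976 ptc1 rises and 276 strain differences. Leaving out an array gave 104 to 203 strain differences, the highest without ptc1 array 1, against 89 on all arrays. With an array left out, a gene needs values on fewer arrays, and the conditions on sign and overlap are easier to meet. These counts are therefore not directly comparable with those on all arrays. In the other nucleotide and RNA polymerase I lists together, 3-fold gave 3 rises in the wild type against 7, and 2 rises and 11 falls in ptc1 against 5 and 20. With 1.5-fold 9 rose in ptc1. The differences of URA1, URA7 and URA4 changed sign when ptc1 values were divided by the slope, and those of URA2, URA5 and URA10 when 1 array was left out. No gene was lost to the limits on spots among the 10, and the spread between separate cultures is unknown.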

Other observations

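Some of the listed genes lead from pyrimidine ribonucleotides to DNA precursors. Ribonucleotide reductase, which makes deoxyribonucleotides, had 1 of 4 subunit genes that fell in each strain. Of all genes 15% fell in the wild type and 12.4% in ptc1. RNR1 fell in the wild type (−1.04 ± 0.07) and in ptc1 (−1.56 ± 0.81), where the arrays read −0.99 and −2.13. RNR2, RNR3 and RNR4 did not pass the 2-fold rule in either strain, with means between −0.10 and 0.56. DUT1, the dUTPase gene, fell in ptc1 (−1.26 ± 0.25) and had a value on 1 wild-type array, −1.69. The thymidylate synthase gene CDC21 (−0.29 ± 0.45 and −0.32 ± 0.48), the thymidylate kinase gene CDC8 (−0.20 ± 0.11 and −0.19 ± 0.50) and the dCMP deaminase gene DCD1 (−0.80 ± 0.17 and −0.61 ± 0.56) did not pass the rule.

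The 10 pyrimidine genes lie on 6 chromosomes in the reference strain, with no pair side by side. Of the 20 genes directly beside them 16 were measured on both wild-type and 16 on both ptc1 arrays. In the wild type 1 of the 16 fell, where 15% of all genes did, and 0 rose, where 13.8% did, with a median of 0.02. In ptc1 0 fell and 0 rose, where 12.4% of all genes fell and 10.6% rose. The gene that fell was YLR419W, beside URA4, at −1.51 ± 0.12, and it stood at −0.75 ± 0.04 in ptc1. The neighbours of URA1, the transporter gene JEN1 (−0.04 ± 0.17) and OXP1 (−0.03 ± 0.41), and the measured neighbour of URA7, MRPL16 (0.11 ± 0.49), had wild-type means near 0.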
